A study of Danio rerio with 9 samples.

Results

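The annexins described here are 10 genes of the zebrafish family, *anxa1a*, *anxa1c*, *anxa2a*, *anxa3b*, *anxa4*, *anxa5b*, *anxa6*, *anxa11a*, *anxa11b* and *anxa13*, among 33737 genes whose RNA was measured in whole embryos at 72 hpf. They were picked by name from a table of expression values, with earlier results of these data known, and *anxa6* was selected on its levels, which lay in opposite directions in the mutant and the morphant relative to wild type. The values of *anxa6* are therefore a description: no p-value is given for it, and nothing is read from its place in a count of calls. Another 7 annexins of the table were not among the 10 and are described after them. RNA came from pools of 30 embryos, with 3 libraries in each of 3 groups, all of the TUAB strain: *MZcep290*-/- mutants, maternal and zygotic mutants that carry a 10-bp deletion in exon 16 of *cep290*, *cep290ex25* morphants, injected with a morpholino against the splice donor of exon 25, and wild-type TuAB embryos. *cep290* encodes a large protein of the ciliary transition zone and centriolar satellites, and the study asked which genes stand higher in the mutant but do not in the morphant. The study calls the wild-type embryos siblings, and its methods state that controls and injected embryos were taken at random from the same clutch, without saying how clutches map to the 9 libraries. Maternal and zygotic mutants have mutant mothers, so mother and group cannot be told apart in the mutant. The labels name no control injection, so injection and group cannot be told apart in the morphant.

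Annexins are soluble proteins that bind negatively charged phospholipids when calcium rises, through a core of repeated helical domains, while their N termini differ and bind different partners. They are known for linking membranes to the cytoskeleton, for vesicle traffic and exocytosis, and for the patching of torn plasma membranes. Several are abundant in epithelia, and ANXA1 and ANXA5 are best known in mammals for limiting inflammation and for binding phosphatidylserine on dying cells. Fish carry extra copies of several family members, and the letters a, b and c in the gene names mark such copies.

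Expression was given as RPKM, reads scaled to gene length and to a library size set by the authors, so that levels can be compared between genes. The reads behind the values could be recovered as whole numbers. They came to between 18662115 and 21299112 reads on genes in the mutant libraries, between 9050375 and 16150393 in the morphant libraries and between 5652757 and 7674248 in the wild-type libraries. The wild-type libraries thus had the fewest reads in all. The 50 genes with the most reads took 21.3 to 22.0% of reads in the mutant, 27.8 to 34.0% in the morphant and 40.8 to 41.9% in wild type. The targeted gene *cep290* was read at 1.32, 1.14 and 1.29 RPKM in the mutant, 5.45, 6.15 and 3.36 RPKM in the morphant and 2.60, 1.62 and 1.72 RPKM in wild type, and neither kind of lesion has to alter a read count.

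The test of each difference was that of limma, run on log2(RPKM + 0.1) for 21982 genes that reached 0.5 RPKM in 3 or more libraries, a filter that all 10 annexins passed. For genes of low level, fold changes on this scale come out too small. A gene was called higher or lower at a Benjamini-Hochberg adjusted p under 0.05, over all genes tested, together with a fold change above 2. In the mutant against wild type, *anxa1c*, *anxa3b* and *anxa13* were called higher and 0 annexins lower, against 10.4% of all genes called higher and 12.1% called lower. *anxa6*, chosen on this contrast, was left out of these calls. At an unadjusted p under 0.05, limma also had *anxa5b* higher, and *anxa2a*, *anxa4* and *anxa11a* lower. Limma with voom weights on the recovered reads called the same annexins higher as the main test and 0 lower, *anxa6* again left out. In the morphant against wild type, *anxa1c*, *anxa2a* and *anxa13* were called higher and 0 annexins lower, against 7.45% of all genes called higher and 14.9% called lower. Here 7 annexins were higher and 0 lower at an unadjusted p under 0.05, with *anxa6*, chosen for being lower there, left out. Voom weights also gave 3 higher and 0 lower. With the plain sum of reads of a library in place of its normalized size, *anxa5b* was called higher in the mutant besides *anxa1c*, *anxa3b* and *anxa13*. In the morphant 6 were called higher, and 0 were lower in either. Under that scaling 6593 of the 21982 genes tested were called higher in the mutant and 3025 in the morphant, and 1188 and 2549 lower. In the mutant against the morphant, *anxa2a* was called lower, against 2.4% of all genes. Among the 9 annexins other than *anxa6*, 0 were called higher, where the share over all genes was 3.48%. *anxa6*, chosen on its levels in these groups, was left out. Voom weights gave the same counts, beside 1651 higher and 689 lower of all genes tested. Scaling by the plain sum of reads called *anxa13* higher and 1 annexin lower, beside 2400 and 179 of all genes tested. At an unadjusted p under 0.05, *anxa13* was higher and 6 annexins lower, *anxa6* left out. No share over all genes was taken at an unadjusted p, so such counts, here and for the lists below, have none beside them. The direction of calls differed with level: among the 9532 genes with a mean of 4 to 128 RPKM, the band that holds all 10 annexins, 16.8% were called higher and 5.59% lower in the mutant than in wild type, and 13.2% higher and 2.18% lower in the morphant. The median log2 fold change of the 10 annexins, *anxa6* counted, was 0.27 in the mutant and 0.77 in the morphant. Over all genes tested these medians were −0.02 and −0.05, and in the 4 to 128 RPKM band 0.23 and 0.31. Without *anxa6*, which was chosen for being higher in the mutant and lower in the morphant, the middle value was that of *anxa1a*, 0.16, in the mutant. In the morphant it was that of *anxa3b*, 0.80. In the mutant against the morphant the median of the 10 was −0.40, beside 0.14 over all genes and −0.09 in the band. Medians also differed within the band. Among genes up to 2-fold away in level from each annexin, the mutant's median against wild type ran from −0.29 (*anxa1a*) to 0.22 (*anxa13*). It was negative for *anxa1a*, *anxa4*, *anxa11b*, *anxa1c*, *anxa2a* and *anxa11a*. Against the morphant it ran from −0.33 (*anxa1a*) to −0.13 (*anxa13*). In the morphant against wild type the median ran from 0.09 (*anxa1a*) to 0.34 (*anxa13*). Because whole embryos were pooled, fewer cells of a type and less RNA per cell cannot be told apart in any of these values. Both comparisons use the same wild-type libraries.

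**Figure D1:**
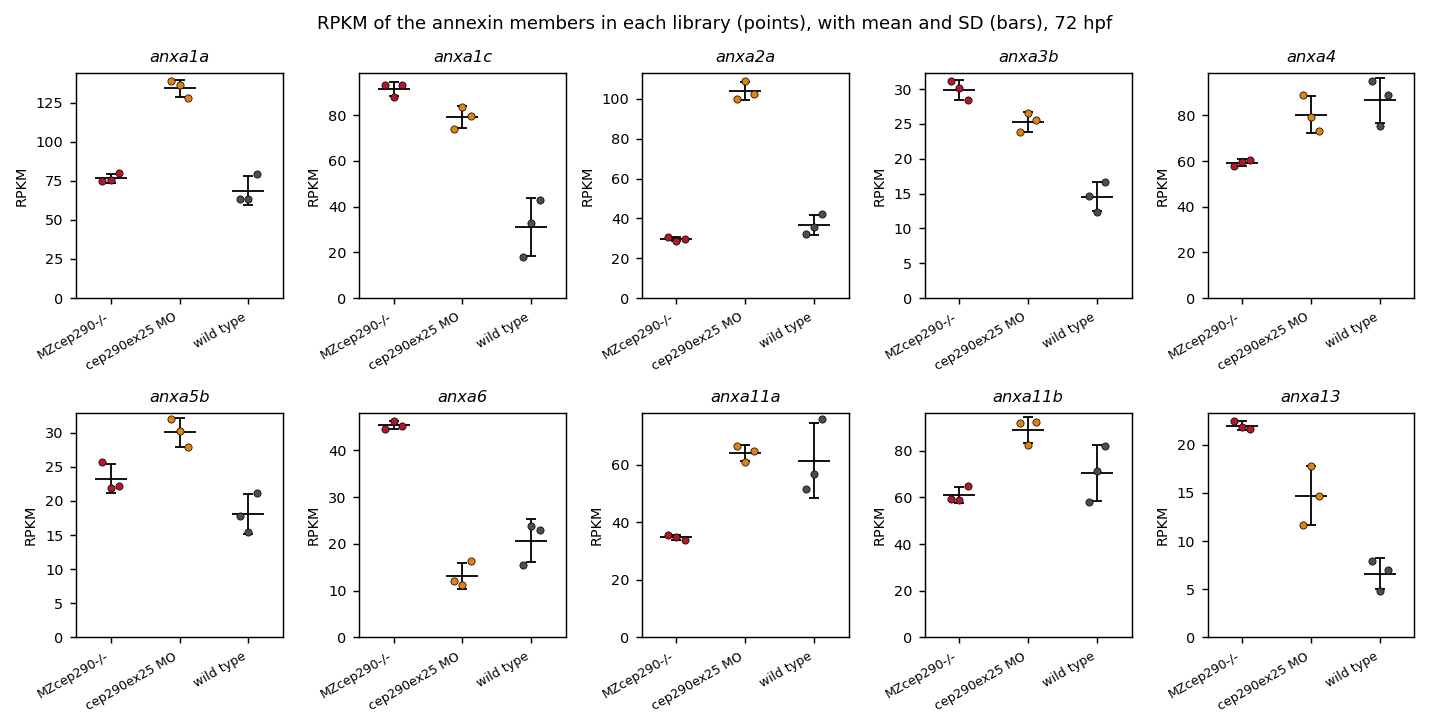
RPKM (vertical axis, linear, from 0) of the 10 annexins in each of 9 libraries, by group; points are libraries and bars the mean ± SD of 3 libraries. *anxa2a* stands highest in the 3 morphant libraries (100.05 to 109 RPKM) and *anxa6* in the 3 mutant libraries (44.6 to 46.3 RPKM).

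The copies of ANXA1, a calcium-dependent phospholipid-binding protein that in mammals is induced by glucocorticoids and dampens leukocyte recruitment, differed in their pattern. *anxa1c* (ENSDARG00000011168) was read at 93.2, 87.8 and 93.1 RPKM in the mutant, 73.9, 83.7 and 79.7 RPKM in the morphant and 17.7, 32.8 and 42.7 RPKM in wild type. Every mutant and every morphant library lay above every wild-type library, and replicate 1 of wild type was the lowest. It rose in the mutant by 1.64 on the log2 scale, or 3.12-fold (standard error 0.257, adjusted p = 0.0013 by limma), and in the morphant by 1.43, or 2.70-fold (standard error 0.257, adjusted p = 0.0030 by limma). The mutant and the morphant were not called different (0.21, 95% interval −0.37 to 0.79, adjusted p = 0.64 by limma). *anxa1c* varied most among wild-type libraries of the 10 genes, with an SD of 40.5% of the mean, whereas the counting of reads alone gives 5.89%. With 1 library left out, its log2 fold change lay between 1.28 and 1.92 for the mutant and between 1.08 and 1.71 for the morphant, and it was called each time.

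*anxa1a* (ENSDARG00000026726) was read at 74.7, 75.4 and 80.0 RPKM in the mutant, 139, 136 and 128 RPKM in the morphant and 63.3, 63.5 and 79.7 RPKM in wild type. The morphant libraries stood apart from all others, while those of the mutant and wild type overlapped. The log2 fold change of *anxa1a* in the morphant was 0.97 (standard error 0.1001, adjusted p = 2.4e-04 by limma), just under 2-fold, and it crossed 2-fold without wild-type replicate 3 (1.08) or morphant replicate 3 (1.01), and when scaled by the plain sum of reads (1.26). In the mutant the difference from wild type was 0.16 (95% interval −0.06 to 0.39, adjusted p = 0.23 by limma). The mutant was 1.75-fold lower than the morphant (log2 fold change −0.81, adjusted p = 0.0015 by limma), less than the 2-fold needed for a call. Reads of 50 bp can be shared between similar copies, and how the counting treated them is not stated, so the split between *anxa1a* and *anxa1c* is less certain than their sum. The summed level of both genes was 168 ± 4.95 RPKM in the mutant, 213 ± 6.04 RPKM in the morphant and 99.9 ± 20.9 RPKM in wild type (SD, n = 3 each).

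*anxa2a* (ENSDARG00000003216) showed the largest difference between the mutant and the morphant among the 9 annexins that were tested. Its mammalian counterpart forms a complex with S100A10 that joins membranes to actin at the cell cortex and takes part in exocytosis. *anxa2a* was read at 30.4, 28.8 and 29.9 RPKM in the mutant, 100.05, 109 and 102 RPKM in the morphant and 32.0, 35.6 and 42.0 RPKM in wild type. All mutant libraries lay under all wild-type libraries and all morphant libraries far above both. It rose in the morphant by 1.51 on the log2 scale, or 2.85-fold (standard error 0.103, adjusted p = 3.1e-05 by limma). Its difference in the mutant was −0.29 (95% interval −0.52 to −0.06, adjusted p = 0.053 by limma) and did not pass. Compared directly, the mutant was 3.49-fold lower than the morphant (log2 fold change −1.80, standard error 0.103, adjusted p = 3.6e-05 by limma). The call in the morphant and the direct call held under every alternative, with log2 fold changes of 1.31 to 1.80 and −1.83 to −1.36. The sign in the mutant was positive (0.44) when the plain sum of reads replaced the normalized library size, and under that scaling the median of all genes was 0.68 in place of −0.02.

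The S100 and ictacalcin genes encode small calcium-binding proteins, among which the mammalian partners of annexins are found. Of 13 genes in this list, 12 were tested. In the mutant against wild type 2 were called higher, *s100u* and *s100v2*, and 0 lower, beside 10.4% and 12.1% of all genes. In the morphant *s100u* was called higher and 0 lower, beside 7.45% and 14.9% of all genes, so 1 of 12 is near the share over all genes. The list's median log2 difference was 0.16 in the mutant and 0.36 in the morphant, beside −0.02 and −0.05 over all genes. Among genes of 4 to 128 RPKM, a band that holds part of the list, the medians were 0.23 and 0.31. At an unadjusted p under 0.05, limma had 4 higher with 1 lower for the mutant, and 5 higher with 1 lower for the morphant. The counts with voom weights were also 2 and 0 in the mutant, and 1 and 0 in the morphant. Between mutant and morphant 0 were called by limma and 1, higher, with voom weights (1 higher and 4 lower at an unadjusted p under 0.05). *s100u* averaged 16.3 ± 0.249 RPKM in the mutant, 15.6 ± 3.69 RPKM in the morphant and 7.49 ± 2.09 RPKM in wild type (SD, n = 3 each). Its log2 fold change was 1.15 in the mutant (adjusted p = 0.0031 by limma) and 1.06 in the morphant (adjusted p = 0.0050). *s100v2* averaged 16.8 ± 1.06 RPKM in the mutant and 8.02 ± 2.61 RPKM in wild type (log2 fold change 1.11, adjusted p = 0.011 by limma). *s100a10b*, a fish copy of the gene for the partner of ANXA2, is named after its values were seen. It averaged 101 ± 3.20 RPKM in the mutant, 126 ± 3.22 RPKM in the morphant and 90.8 ± 10.9 RPKM in wild type, and its log2 fold changes were 0.15 in the mutant (adjusted p = 0.23 by limma) and 0.48 in the morphant (adjusted p = 0.0042), both under 2-fold. The copy *s100a10a* went the other way, at 6.38 RPKM in the mutant, 4.68 RPKM in the morphant and 9.01 RPKM in wild type. Its log2 fold changes were −0.50 in the mutant (adjusted p = 0.11 by limma) and −0.95 in the morphant (adjusted p = 0.010). *s100a11* was listed at 0 in all 9 libraries.

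*anxa13* and *anxa3b* were both called higher in the mutant. ANXA13 is known in mammals as an intestinal annexin that carries a myristoyl group on its N terminus. *anxa13* (ENSDARG00000013976) was read at 22.5, 21.9 and 21.6 RPKM in the mutant, 11.7, 17.8 and 14.7 RPKM in the morphant and 7.94, 4.81 and 7.02 RPKM in wild type. The groups did not overlap, with the mutant highest and wild type lowest. Its log2 fold change in the mutant was 1.75, or 3.37-fold (standard error 0.203, adjusted p = 2.5e-04 by limma), the largest of the 10 genes in that comparison, and the call held under every alternative (1.51 to 2.48). In the morphant it rose by 1.16, or 2.23-fold (standard error 0.203, adjusted p = 0.0027 by limma), and was under 2-fold without wild-type replicate 2 (0.95), after quantile normalization (0.87) and after cyclic loess normalization (0.78). The difference between mutant and morphant was 0.60 (95% interval 0.14 to 1.05, adjusted p = 0.089 by limma), and with the plain sum of reads it was 1.03 (adjusted p = 0.016) and called. The levels rest on 1935 to 2284 reads in the mutant, 432 to 1114 reads in the morphant and 85 to 144 reads in wild type.

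*anxa3b* (ENSDARG00000044254), a copy of ANXA3, was read at 31.2, 30.1 and 28.4 RPKM in the mutant, 23.8, 26.6 and 25.6 RPKM in the morphant and 14.7, 12.4 and 16.7 RPKM in wild type. The order of the groups was that of *anxa13*, again without overlap. The log2 fold change in the mutant was 1.04, or 2.06-fold (standard error 0.118, adjusted p = 2.2e-04 by limma), which lies at the threshold: in 5 of 21 alternatives it was under 2-fold, among them without wild-type replicate 2 (0.93), while its adjusted p was at most 0.0022 in any of them. In the morphant it was 0.80, or 1.74-fold (adjusted p = 0.0012 by limma). The mutant and the morphant were not called different (0.24, 95% interval −0.02 to 0.51, adjusted p = 0.22 by limma).

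**Figure D2:**
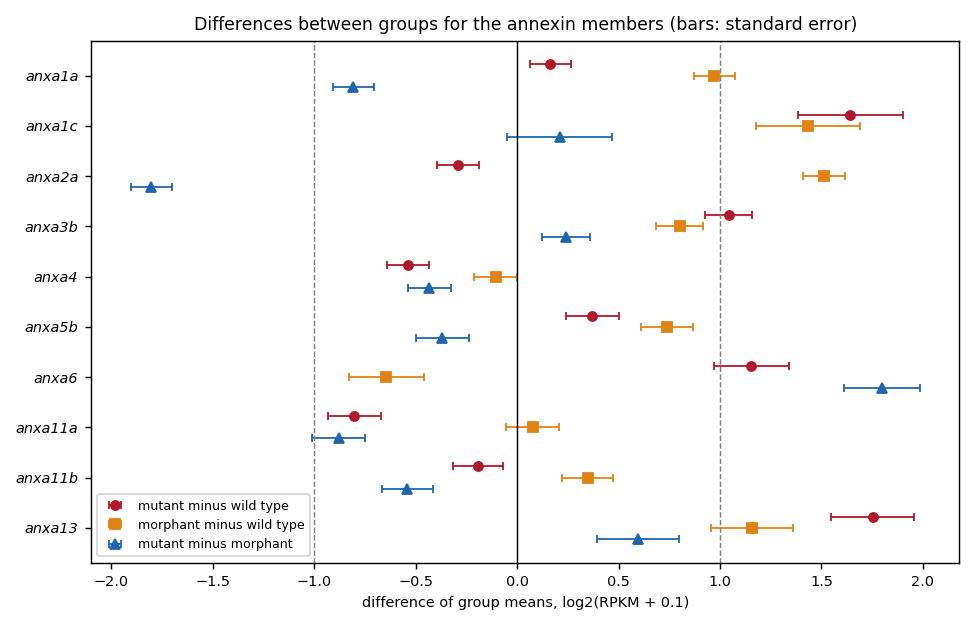
Differences of group means on the log2(RPKM + 0.1) scale (horizontal axis) for the 10 annexins: circles, mutant minus wild type; squares, morphant minus wild type; triangles, mutant minus morphant; bars, standard error; dashed lines, 2-fold. *anxa13* lies furthest to the right in the mutant (1.75), and *anxa2a* and *anxa6* lie furthest apart between mutant and morphant (−1.80 and 1.80).

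*anxa4* and *anxa5b* differed from wild type by less than 2-fold in both groups, but with the plain sum of reads *anxa5b* passed 2-fold and was called higher in both the mutant (adjusted p = 1.6e-04 by limma) and the morphant (adjusted p = 5.2e-04). ANXA4 is abundant in epithelia of mammals, and ANXA5 is widely used as a probe for phosphatidylserine on the outside of dying cells. *anxa4* (ENSDARG00000036456) was read at 57.7, 59.8 and 60.5 RPKM in the mutant, 88.8, 79.2 and 73.1 RPKM in the morphant and 95.0, 75.5 and 89.1 RPKM in wild type. All mutant libraries lay under all others, while those of the morphant and wild type overlapped. The mutant was 1.45-fold lower than wild type (log2 fold change −0.54, standard error 0.106, adjusted p = 0.0042 by limma) and 1.35-fold lower than the morphant (−0.43, adjusted p = 0.026). Genes up to 2-fold away from *anxa4* in level had medians of −0.21 and −0.32 in these comparisons. Scaled by the plain sum of reads, both differences of *anxa4* turned positive, 0.19 against wild type and 0.01 against the morphant. *anxa5b* (ENSDARG00000016470) was read at 25.7, 21.9 and 22.2 RPKM in the mutant, 32.0, 30.2 and 27.9 RPKM in the morphant and 17.7, 15.4 and 21.1 RPKM in wild type, highest in the morphant without overlap. Its log2 fold change was 0.37 in the mutant (adjusted p = 0.052 by limma) and 0.74, or 1.67-fold, in the morphant (standard error 0.130, adjusted p = 0.0027 by limma). The difference between mutant and morphant was −0.37 (95% interval −0.66 to −0.08, adjusted p = 0.097 by limma), or 0.07 when scaled by the plain sum of reads.

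*anxa6* (ENSDARG00000013335) encodes the annexin with a doubled core, which in mammalian cells binds late endosomes and the plasma membrane and gathers at sites of membrane damage. It was read at 44.6, 46.3 and 45.3 RPKM in the mutant, 12.1, 11.1 and 16.3 RPKM in the morphant and 15.4, 23.7 and 23.0 RPKM in wild type. The mutant libraries stood apart from all others. Replicate 3 of the morphant (16.3 RPKM) lay above replicate 1 of wild type (15.4 RPKM), so the morphant and wild type overlapped. The log2 difference of *anxa6* was 1.16 in the mutant against wild type, or 2.23-fold higher (standard error 0.186), −0.64 in the morphant against wild type, or 1.56-fold lower (standard error 0.186), and 1.80 in the mutant against the morphant, or 3.48-fold higher. With 1 library left out these ranged from 0.96 to 1.27, from −0.84 to −0.53 and from 1.69 to 1.96, the lowest of the first range being that without wild-type replicate 1. Over all 21 alternatives the difference in the morphant ranged from −0.98 to −0.35. These signs are what the gene was chosen for, so their stability is no support for them. The spread of *anxa6* was small in the mutant, at 1.84% of the mean against 2.08% from counting alone, and larger in the morphant (20.8%, against 5.84%) and in wild type (22.2%, against 6.95%). It rests on 2189 to 2424 reads in the mutant, 254 to 371 reads in the morphant and 145 to 252 reads in wild type.

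The copies of ANXA11 were not called in any comparison, and their largest differences were those between mutant and morphant. ANXA11 is known in mammals for a long, disordered N terminus through which it tethers RNA granules to lysosomes. *anxa11a* (ENSDARG00000077383) was read at 35.7, 34.7 and 33.9 RPKM in the mutant, 66.5, 60.9 and 64.8 RPKM in the morphant and 51.6, 56.8 and 76.1 RPKM in wild type. The mutant libraries lay under all others, and the morphant libraries fell within the range of wild type. The mutant was 1.74-fold lower than wild type (log2 fold change −0.80, standard error 0.131, adjusted p = 0.0016 by limma) and 1.84-fold lower than the morphant (−0.88, adjusted p = 0.0031 by limma), both short of a call. Scaled by the plain sum of reads, the difference from wild type was −0.07 (adjusted p = 0.59 by limma) and that from the morphant −0.44. The difference between morphant and wild type was 0.08 (95% interval −0.22 to 0.37, adjusted p = 0.68 by limma), and its sign turned without wild-type replicate 1 (−0.04) and after quantile (−0.05) and cyclic loess normalization (−0.11).

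*anxa11b* (ENSDARG00000002632) was read at 59.5, 58.7 and 64.8 RPKM in the mutant, 91.9, 82.3 and 92.4 RPKM in the morphant and 57.9, 71.1 and 82.2 RPKM in wild type. The mutant overlapped wild type, and each morphant library lay above each wild-type library, the closest pair being 82.3 and 82.2 RPKM. The mutant was 1.45-fold lower than the morphant (log2 fold change −0.54, standard error 0.124, adjusted p = 0.020 by limma), a difference of −0.10 (adjusted p = 0.39) when scaled by the plain sum of reads. Neither the mutant (−0.19, 95% interval −0.47 to 0.09, adjusted p = 0.26 by limma) nor the morphant (0.35, 95% interval 0.07 to 0.63, adjusted p = 0.055 by limma) passed against wild type, and the sign in the mutant turned after cyclic loess normalization (0.04) and with the plain sum of reads (0.54). Genes up to 2-fold away from *anxa11b* in level had a median of −0.20 in the mutant, 0.13 in the morphant and −0.31 between them. The summed level of both copies was 95.8 ± 2.68 RPKM in the mutant, 153 ± 8.46 RPKM in the morphant and 132 ± 24.7 RPKM in wild type (SD, n = 3 each).

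For each comparison of the 9 tested annexins in which the groups did not overlap, the two-sided exact permutation test over libraries gave p = 0.10, the smallest that 3 against 3 libraries allow, so that single-gene test cannot pass 0.05 here. Over the 10 genes the SD was 1.84 to 9.12% of the mean in the mutant, 4.16 to 21.0% in the morphant and 11.5 to 40.5% in wild type.

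The order of the levels also differed between groups. In the mutant *anxa1c* was highest (91.4 RPKM), then *anxa1a* (76.7 RPKM) and *anxa11b* (61.0 RPKM), and *anxa13* lowest (22.0 RPKM). The libraries of *anxa11b* and *anxa4*, of *anxa3b* and *anxa2a*, and of *anxa5b* and *anxa13* overlapped, whereas the other neighbours in that order did not. In the morphant *anxa1a* (134 RPKM) and *anxa2a* (104 RPKM) led, and *anxa13* (14.7 RPKM) and *anxa6* (13.2 RPKM) came last and overlapped, as did *anxa11b* and *anxa4*, and *anxa4* and *anxa1c*. In wild type *anxa4* (86.5 RPKM), *anxa11b* (70.4 RPKM), *anxa1a* (68.8 RPKM) and *anxa11a* (61.5 RPKM) led with overlap between neighbours. *anxa13* was the lowest (6.59 RPKM), clear of *anxa3b* (14.6 RPKM).

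The 10 annexins summed to 475, 465 and 480 RPKM in the mutant, 639, 637 and 625 RPKM in the morphant and 373, 392 and 480 RPKM in wild type. The morphant libraries were the highest, and the mutant and wild type met at replicate 3 of each (480 RPKM). With the other 7 annexins the sums averaged 540 ± 6.59 RPKM in the mutant, 703 ± 5.17 RPKM in the morphant and 467 ± 59.4 RPKM in wild type (SD, n = 3 each). *anxa1c* took 16.9% of this summed level in the mutant, 11.2% in the morphant and 6.53% in wild type. *anxa2a* took 5.49% in the mutant, 14.8% in the morphant and 7.82% in wild type, and *anxa6* took 8.40% in the mutant, 1.87% in the morphant and 4.43% in wild type. *anxa4* took 10.98% in the mutant, 11.4% in the morphant and 18.7% in wild type, and *anxa11a* took 6.43% in the mutant, 9.11% in the morphant and 13.1% in wild type. A share depends on the other annexins, so it shows unequal change within the family only.

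**Figure D3:**
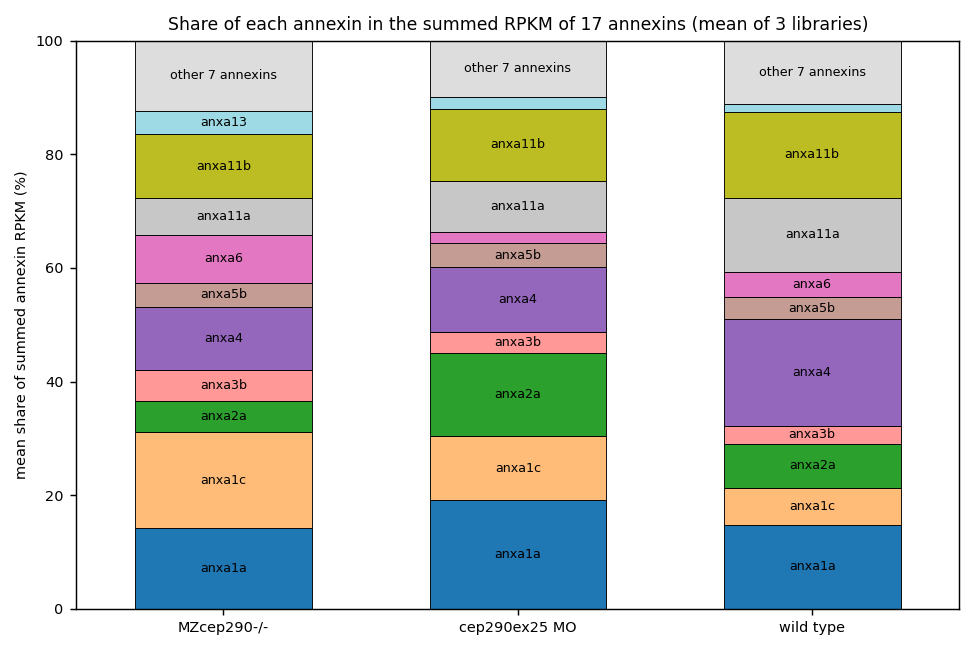
Stacked bars of the mean share (percent, vertical axis) of each annexin in the summed RPKM of all 17 annexins of the table, by group (mean of 3 libraries). *anxa1c* takes 16.9% in the mutant and 6.53% in wild type, and *anxa2a* takes 14.8% in the morphant and 7.82% in wild type.

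The 7 annexins outside the list all passed the filter. In the mutant against wild type 2 of them were called higher, *ANXA1 (4 of 4)* and *anxa2b*, and 0 lower, with 3 higher and 2 lower at an unadjusted p under 0.05 by limma and 2 and 0 called with voom weights, beside 10.4% of all genes called higher and 12.1% lower. In the morphant *ANXA1 (4 of 4)* was called higher and *anxa5a* lower (2 higher and 1 lower with voom weights), beside 7.45% and 14.9% of all genes, and between mutant and morphant 0 were called by limma or with voom weights, with 2 higher and 2 lower at an unadjusted p under 0.05. *ANXA1 (4 of 4)*, a further copy of ANXA1, was read at 9.65, 9.91 and 11.9 RPKM in the mutant, 11.5, 14.6 and 15.2 RPKM in the morphant and 4.92, 7.11 and 3.68 RPKM in wild type. Wild type was lowest without overlap, as for *anxa1c* (log2 fold change 1.03 in the mutant, adjusted p = 0.0076 by limma, and 1.42 in the morphant, adjusted p = 0.0018). The wild-type levels of *ANXA1 (4 of 4)* rest on only 27 to 45 reads, and its difference in the mutant lies at the 2-fold threshold. *anxa1b* was read at 16.7, 16.2 and 16.4 RPKM in the mutant, 22.9, 26.0 and 29.5 RPKM in the morphant and 17.1, 12.6 and 17.6 RPKM in wild type. Like *anxa1a* it was highest in the morphant without overlap, at under 2-fold (log2 fold change 0.73, adjusted p = 0.0049 by limma). The summed level of the 4 ANXA1 copies was 195 ± 6.10 RPKM in the mutant, 253 ± 6.71 RPKM in the morphant and 121 ± 20.8 RPKM in wild type (SD, n = 3 each).

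The second copies of other members did not always share the pattern of the first. *anxa2b* was read at 6.23, 7.502 and 7.33 RPKM in the mutant, 4.89, 6.57 and 5.99 RPKM in the morphant and 0.932, 4.25 and 3.09 RPKM in wild type, on only 7 to 32 reads in wild type. It rose in the mutant (log2 fold change 1.55, standard error 0.450, adjusted p = 0.025 by limma) and not by the test in the morphant (1.28, adjusted p = 0.053), with no call between mutant and morphant (0.27, 95% interval −0.74 to 1.29), where *anxa2a* differed 3.49-fold. *anxa5a* was read at 2.31, 1.90 and 2.04 RPKM in the mutant, 1.01, 1.22 and 1.25 RPKM in the morphant and 3.64, 2.59 and 5.50 RPKM in wild type. It fell in the morphant by 1.61 on the log2 scale (standard error 0.310, adjusted p = 0.0041 by limma), on 12 to 25 reads, whereas *anxa5b* was highest there. *anxa3a* averaged 24.8 ± 2.36 RPKM in the mutant, 14.7 ± 3.41 RPKM in the morphant and 14.9 ± 2.13 RPKM in wild type (SD, n = 3 each). It was higher in the mutant by under 2-fold (log2 fold change 0.74, adjusted p = 0.014 by limma), and its difference in the morphant was −0.04 (95% interval −0.46 to 0.38, adjusted p = 0.88). *anxa13l* averaged 5.43 ± 0.480 RPKM in the mutant, 7.44 ± 0.766 RPKM in the morphant and 8.08 ± 0.420 RPKM in wild type, lower in the mutant by under 2-fold (−0.57, adjusted p = 0.012 by limma). *ANXA9* had at most 48 reads in any library and 0 reads in wild-type replicate 3, and its differences were not resolved at this depth (0.37 in the mutant, 95% interval −2.18 to 2.91).

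**Figure D4:**
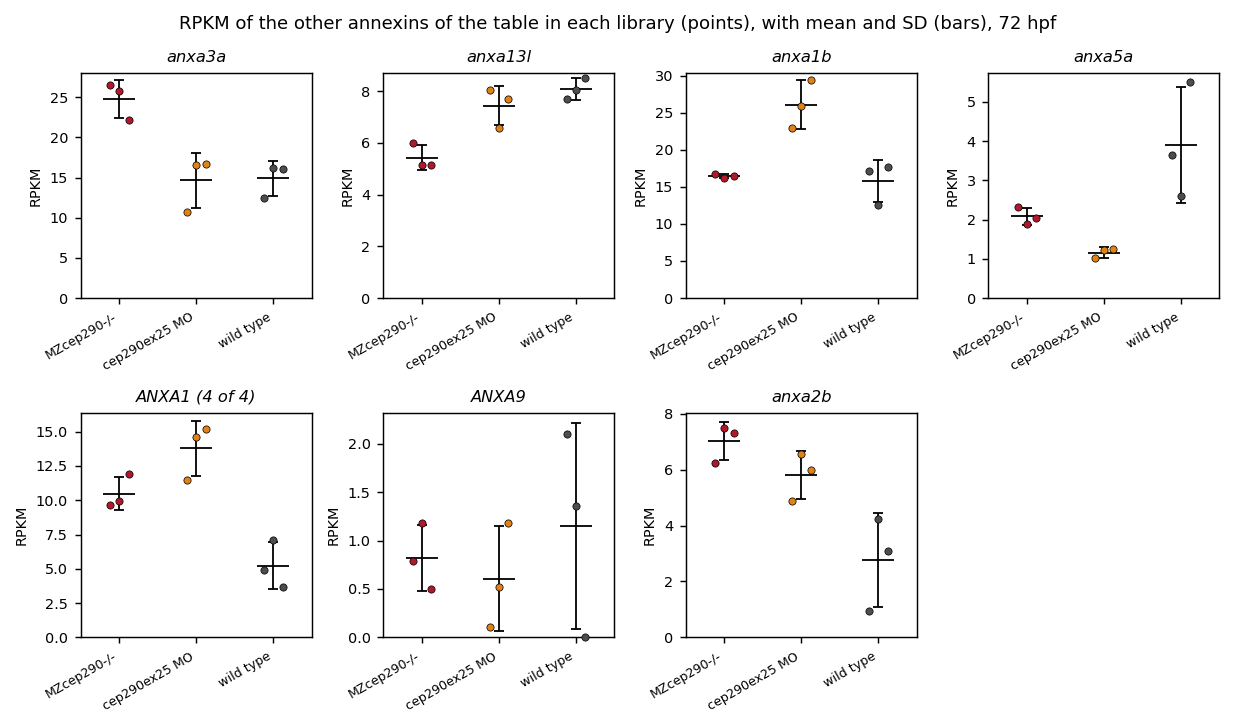
RPKM (vertical axis, linear, from 0) of the 7 annexins outside the list in each of 9 libraries, by group; points are libraries and bars the mean ± SD of 3 libraries. *anxa3a* is highest in the mutant (22.1 to 26.5 RPKM), and *ANXA1 (4 of 4)* is lowest in wild type (3.68 to 7.11 RPKM).

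Markers of several tissues moved with the groups. Their counts stand beside 10.4% of all genes called higher and 12.1% lower in the mutant, and 7.45% higher and 14.9% lower in the morphant. Of 10 epidermal markers, 4 were called higher and 3 lower in the mutant and 4 higher and 0 lower in the morphant. Their summed level was 3641 to 3679 RPKM in the mutant, 6228 to 7745 RPKM in the morphant and 6936 to 9329 RPKM in wild type, lowest in the mutant without overlap. That sum was carried by keratins, *krt4* above all (2383 RPKM in the mutant and 5745 RPKM in wild type). It runs against most of the list, since 6 of 10 markers had a positive difference in the mutant. *cdh1*, *epcam*, *evpla* and *cldni* were called higher there, and *krt4*, *krt5* and *cyt1* lower. The list's median log2 fold change in the mutant was 0.38. Of 6 skeletal muscle markers, 3 were called lower in the mutant and 0 in the morphant, with sums of 8573 to 9049 RPKM in the mutant, 13730 to 18370 RPKM in the morphant and 19300 to 25530 RPKM in wild type. The 3 called lower, *atp2a1*, *acta1b* and *ckma*, averaged 2256, 2736 and 6006 RPKM over all libraries. Whether they or the keratins called lower differ from other genes of such high levels was not tested. Neurons went the other way in the mutant: 5 of 6 markers were tested, of which 4 were called higher in the mutant and 1 in the morphant. Their sums were 353 to 365 RPKM in the mutant, 155 to 203 RPKM in the morphant and 95.5 to 110 RPKM in wild type, and *gap43* was listed at 0 in all 9 libraries. In the morphant the list was mixed, with a median log2 fold change of 0.19, and 2 higher and 2 lower at an unadjusted p under 0.05 by limma. The morphant's higher sum came mostly from *stmn1b* (95.7 RPKM in the morphant and 35.4 RPKM in wild type). Of 6 intestinal markers, 4 were tested, and *vil1* and *cdx1b* were called lower in both groups, with sums of 41.9 to 46.2 RPKM in the mutant, 47.2 to 56.0 RPKM in the morphant and 48.0 to 67.4 RPKM in wild type. Of 24 leukocyte entries, many of them copies of *mfap4*, 21 were tested. Of these 4 were called lower and 0 higher in the mutant, and 6 lower and 2 higher in the morphant. The entries called lower averaged only 0.4659 to 1.097 RPKM over all libraries. A gene of such a level could pass the filter through the 3 wild-type libraries alone, so these lower calls can be set by the filter. Whether they differ from other genes of that level was not tested. The entries with the highest averages, 12.2 to 76.1 RPKM, were not called in either group. The sums of the 24 entries overlapped, at 136 to 141 RPKM in the mutant, 117 to 153 RPKM in the morphant and 120 to 153 RPKM in wild type. A duplicate entry of *lcp1* was listed at 0 in every library. Of 4 notochord markers, 1 was called higher (*col8a1a*) and 1 lower (*matn1*) in the mutant and 1 lower (*matn1*) in the morphant. Their sums were 154 to 160 RPKM in the mutant, 168 to 180 RPKM in the morphant and 238 to 268 RPKM in wild type. The lower sums came mostly from *matn1* (40.1 RPKM in the mutant, 54.5 RPKM in the morphant and 115 RPKM in wild type), so they do not describe the list as a whole. The part of these tissues in the annexin levels was not tested.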

How the data were processed

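RNA from pools of 30 embryos was selected for polyA, made into directional libraries and read as 50-bp single ends. Per the labels and methods, the authors used FastQC, STAR on Zv9, HTSeq and edgeR, with versions, annotation release and counting options not given in the sources used here. The authors deposited RPKM values, which are relative to library sizes they normalized, for 33737 genes in 9 libraries, with gene lengths. RPKM times length was a whole multiple of 1 read in 100% of values (tolerance 0.01). No column was left unused (0). Short labels tied columns to titles; wild-type replicate 3 has a short label derived from that of replicate 2 (WT2.1), and whether it is a separate pool or another library of the same pool is not given. Their reads differed by 8.60 times the sampling noise (chi-square per degree of freedom over genes with 20 reads or more), against 8.38 and 14.9 for the other wild-type pairs. Such a spread cannot tell a separate pool from another library of the same pool. They were kept as 2 libraries, as their titles number them. Whether replicates came from separate clutches is not stated, so p-values measure the spread between libraries, which may be technical. Intervals and read numbers cover counting error only where they are called so.

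The 10 members and all lists were chosen with earlier results of these data known. Of 17 annexins, 13 had a symbol in a names table; deposited names are used. No coordinates are given, since the reference is of another build, and no sequences were used here. Values were fitted as log2(RPKM + 0.1), 3 group means over 9 libraries, with limma 3.58.1 in R 4.3.3 (moderated test with trend; 95% intervals from its standard errors and degrees of freedom). The fit was run on simulated data in which all groups shared a common mean profile, apart from genes changed on purpose. Those data lack the groups' differences in the share of reads on the top genes, so they cannot show how such differences affect the calls. A count model was not the main test, because the unit is RPKM. Exact permutation tests used scipy 1.17.1; tables and figures Python 3.11.15, pandas 2.3.3, numpy 2.4.6 and matplotlib 3.10.9. The text names all members, all other annexins and, per list, at most the 4 called genes with the highest mean, except that every called epidermal marker is named. *s100a10b*, *s100a10a*, genes listed at 0 and the 3 genes most like *anxa6* are named besides. As alternatives the pseudocount was set to 1 or 0.01, the filter dropped or replaced by a mean of 2 RPKM, and median-of-ratios, quantile and cyclic loess scaling, library read totals (the plain sum of reads), only the groups compared, weights per group, voom weights, no fold threshold, a replicate block and each library left out were run.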

Additional observations from a re-analysis of the deposited data

How the results depend on the processing

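The signs and calls of 15 of the 30 comparisons of single annexins were the same under all 21 alternatives run on them, and 604 of 630 alternative values were on the same side of the threshold with the same sign. The filter changes, only the groups compared, weights per group, the replicate block and leaving out a library of the group not compared cannot alter a log2 fold change. For a gene under 2-fold they could not alter the outcome, so these counts overstate the stability. These counts include *anxa6*, chosen on its signs. Its comparisons of morphant with wild type and of mutant with morphant are among the 15, and their stability is no support for those signs. Scaled by library read totals, all genes had a median log2 fold change of 0.68 in the mutant against wild type, 0.22 in the morphant against wild type and 0.55 in the mutant against the morphant. Signs then turned for *anxa2a* (0.44), *anxa4* (0.19) and *anxa11b* (0.54) in the mutant, *anxa4* (0.19) in the morphant, and *anxa4* (0.01) and *anxa5b* (0.07) between mutant and morphant. With that scaling 6 annexins were called higher in the morphant, and *anxa13* in the mutant against the morphant, *anxa6* left out. Cyclic loess normalization turned *anxa11b* in the mutant (0.04) and *anxa11a* in the morphant (−0.11), and quantile normalization turned *anxa11a* in the morphant (−0.05); for *anxa11a* in the morphant the range with 1 library left out was −0.04 to 0.24. With no minimum fold change, 2 annexins were lower in the mutant, beside 3991 of the 21982 genes tested. In the morphant 6 annexins were then higher and no annexin lower, *anxa6* left out, beside 3659 and 4077 genes. In the mutant against the morphant 5 annexins were then lower, beside 1831 genes. With 1 library left out, 2 to 4 annexins were called higher in the morphant, the 2 being without wild-type replicate 2, beside 1299 to 2002 genes. In the mutant *anxa1c*, *anxa3b* and *anxa13* were called each time, except *anxa3b* without wild-type replicate 2 (0.93), beside 1785 to 2582 genes. *anxa6*, chosen on this contrast, was left out. Without wild-type replicate 3, 4 annexins were called higher in the morphant. With the replicate number as a block (replicate block), *anxa1c*, *anxa3b* and *anxa13* were called higher in the mutant and 3 annexins in the morphant, as without it. Over all genes tested 2246 and 1590 were then called higher. Same-numbered libraries did not deviate together, with correlations of −0.04 to 0.01 across genes. The causes of these shifts were not tested. Depth limits *ANXA9*, *anxa5a* and *anxa2b*, which had 37 reads or fewer in each wild-type library, and *ANXA1 (4 of 4)*, which had 27 to 45.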

Other observations

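Other proteins that bind membranes when calcium rises, or that act with annexins in the repair of torn membranes, were taken from lists by name. Copines are a family of calcium-dependent phospholipid-binding proteins with a pair of C2 domains. Of 10 copine genes 9 were tested, of which 1 was called higher and 2 lower in the mutant, and 2 higher and 4 lower in the morphant, with median log2 fold changes of −0.93 and −1.85. All genes tested were called higher in 10.4% and lower in 12.1% of cases in the mutant, and in 7.45% and 14.9% in the morphant. Their medians were −0.02 and −0.05. The copines called lower averaged 0.90 to 1.25 RPKM over all libraries. For 6446 genes of levels near this, up to 2-fold away from *ANXA9*, the medians were −0.69 in the mutant and −1.32 in the morphant. A gene of low level could pass the filter through the 3 wild-type libraries alone, so lower values among such genes can be set by the filter. Whether the lower copines differ from other genes of that level was not tested. *cpne1* averaged 37.7 ± 1.87 RPKM in the mutant, 36.7 ± 1.55 RPKM in the morphant and 9.76 ± 0.891 RPKM in wild type (SD, n = 3 each), a log2 fold change of 1.94 in the mutant (adjusted p = 1.0e-05 by limma) and 1.90 in the morphant (adjusted p = 8.1e-06). For *cpne3* the difference was 0.70 in the mutant (adjusted p = 0.073 by limma) and 1.07 in the morphant (adjusted p = 0.014), and it was not called between mutant and morphant (−0.37, adjusted p = 0.42). Between mutant and morphant 0 copines were called by limma and 1 with voom weights, and 1 was higher at an unadjusted p under 0.05. The lower copines were read at under 3 RPKM in wild type on average, for example *CPNE7* at 0.643 ± 0.0591 RPKM in the mutant, 0.447 ± 0.292 RPKM in the morphant and 2.65 ± 0.365 RPKM in wild type.

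Of 24 membrane repair genes, 2 were called higher and 2 lower in the mutant, and 4 higher and 0 lower in the morphant. Over all genes 10.4% were called higher and 12.1% lower in the mutant, and 7.45% and 14.9% in the morphant. The shares of 2 in 24 are no higher than those of all genes in the mutant. At an unadjusted p under 0.05 limma had 9 higher and 3 lower in the mutant and 8 higher and 2 lower in the morphant, and voom weights called 3 and 2 in the mutant and 4 and 0 in the morphant. In the mutant against the morphant 1 was called higher and 1 lower by limma and with voom weights, beside 3.48% and 2.4% of all genes, with 3 higher and 10 lower at an unadjusted p under 0.05. The list's median log2 fold changes were 0.14 in the mutant, 0.20 in the morphant and −0.26 between them. Among genes of 4 to 128 RPKM, a band that holds most of the list, they were 0.23, 0.31 and −0.09. *ahnak*, whose large product binds the complex of ANXA2 and S100A10 in mammals, averaged 23.4 ± 0.742 RPKM in the mutant, 20.4 ± 2.15 RPKM in the morphant and 5.93 ± 0.757 RPKM in wild type (SD, n = 3 each). Its log2 fold change was 1.97 in the mutant (adjusted p = 1.6e-05 by limma) and 1.77 in the morphant (adjusted p = 3.9e-05). *cav1*, the gene for caveolin-1, averaged 26.1 ± 0.861 RPKM in the mutant, 20.2 ± 2.57 RPKM in the morphant and 6.70 ± 1.12 RPKM in wild type, and rose in both (1.96, adjusted p = 2.8e-05 by limma, and 1.58, adjusted p = 1.2e-04). *pdcd6ip*, the gene for the ESCRT adaptor ALIX, averaged 18.4 ± 0.536 RPKM in the mutant, 36.7 ± 6.32 RPKM in the morphant and 37.6 ± 4.60 RPKM in wild type, and fell in the mutant by 1.02 on the log2 scale (adjusted p = 5.8e-04 by limma). *capn2a*, a calpain protease gene, rose in the morphant by 1.17 on the log2 scale (adjusted p = 1.9e-04 by limma) and was under 2-fold in the mutant (0.71, adjusted p = 0.0015).

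The 3 genes whose levels were most like those of *anxa6* over the 9 libraries, among 14288 genes that averaged 2 RPKM or more, were *adh8b*, *col9a1* and *rpl22l1*, with Pearson's r of 0.99, 0.98 and 0.98 on log2(RPKM + 0.1). The 9 libraries form 3 groups, so these values mostly reflect the group levels and are given as a description. *adh8b* averaged 41.0 RPKM in the mutant, 4.37 RPKM in the morphant and 8.22 RPKM in wild type.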
